A study of Mus musculus with 6 samples.

Results

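Gamma-delta T cells are lymphocytes that carry a receptor made of a γ and a δ chain in place of the α and β chains of conventional T cells. In the mouse, the γ variable segment a cell uses goes with the tissue it lives in and the cytokine it makes. Cells with the Vγ6 chain settle in mucosa, dermis, uterus and tongue and release IL-17, whereas cells with the Vγ5 chain live in the epidermis as dendritic epidermal T cells. The segments are named here by the scheme of the deposited symbols. The transcription factor Sox13 and the Src family kinase Blk are known from mouse work on the development of IL-17 producing γδ T cells, and the interleukin 7 receptor α chain, encoded by Il7r, maintains these cells. Blk is also a kinase of B cells, and Il7r is carried by most resting T cells and by innate lymphoid cells.

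The 6 genes described are Tcrg-V6, Tcrg-V5, A630038E17Rik, Blk, Il7r and Sox13, of 24647 genes named on the arrays. They were taken as every row whose deposited gene symbol equals one of these names, which gave 9 probe sets of 34365: A630038E17Rik has 4, and each of the other genes has 1. The genes were selected on differences seen in the same comparison of genotypes, so their differences are a description and no test of them is given. RefSeq (GRCm38.p6) lists the γ segments as Trgv6 and Trgv5, holds Blk, Il7r and Sox13 under their symbols, and in the table used here has no entry for A630038E17Rik.

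Metaplastic nodules were dissected whole from the squamo-columnar junction (SCJ), where the squamous forestomach meets the glandular stomach, and compared between genotypes on Affymetrix mouse gene arrays. *K14-Cdx2::L2-IL-1β* mice (Cdx2/IL-1B; samples 52540, 52541 and 52542) make excess IL-1β in squamous esophagus and forestomach from the L2 transgene and also carry the intestinal transcription factor Cdx2 under the keratin 14 promoter of basal squamous cells. *L2-IL-1β* mice (IL-1B; samples 52543, 52544 and 52545) carry the IL-1β transgene alone. Both genotypes were of the strain C57/BL6 and received deoxycholic acid for 12 months, so IL-1β and the bile acid are shared by both groups and no untreated or non-transgenic tissue is among the arrays. The study calls the arrays of a genotype biological replicates, and these sources do not say whether a sample came from 1 mouse or from a pool. A difference is the log2 intensity of *K14-Cdx2::L2-IL-1β* nodules minus that of *L2-IL-1β* nodules, with the standard error (SE) of the limma fit. A probe set was called changed at a Benjamini-Hochberg adjusted p under 0.10 over all 34365 probe sets. Of these, 4699 had an unadjusted p under 0.05 by limma, in either direction, and counts at that p below are to be read beside this share. Because the nodules were homogenised whole, fewer cells of a type and less RNA per cell cannot be told apart in any value below.

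The transgene was visible in its own probe set: Cdx2 measured 9.04, 9.72 and 9.83 in *K14-Cdx2::L2-IL-1β* samples 52540, 52541 and 52542, against 6.74, 6.87 and 6.80 in *L2-IL-1β* samples 52543, 52544 and 52545. Array medians lay between 6.62 and 6.65. Sample 52540 correlated with the other genotype (mean r = 0.990) no less than with its own (mean r = 0.987). Sample 52541 had Y-linked transcripts, with a median of 4 genes 4.25 above the *L2-IL-1β* mean, and the other 5 arrays lay within 0.09 of it. In sample 52542 the pancreatic acinar gene Cpa1 measured 11.27, against 6.51 to 6.67 in the other 5 samples. The part of these features in the results was not tested, and differences are therefore also given without each array.

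Tcrg-V6 is the variable segment of the IL-17 producing γδ T cells of mucosa. With Cdx2 its signal was 4.24-fold lower. Its probe set (17285516; chromosome 13 from 19282237 to 19282798, plus strand, NCBIM37) is annotated to a transcript of 562 bases, the length RefSeq gives for Trgv6. The log2 intensities were 9.04, 8.56 and 8.10 in *K14-Cdx2::L2-IL-1β* samples 52540, 52541 and 52542, against 10.78, 10.86 and 10.31 in *L2-IL-1β* samples 52543, 52544 and 52545. The genotypes did not overlap, and the gap between the highest *K14-Cdx2::L2-IL-1β* and the lowest *L2-IL-1β* sample (1.27) exceeded the range within either genotype (0.941 in *K14-Cdx2::L2-IL-1β* and 0.547 in *L2-IL-1β* nodules). The difference was -2.08 (SE 0.26, n = 3 each), and it stayed between -2.32 and -1.85 when any 1 array was left out.

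Tcrg-V5, the segment of epidermal γδ T cells, lies just downstream of Tcrg-V6 (probe set 17285519; chromosome 13 from 19284302 to 19284594, plus strand, NCBIM37). It measured 5.72, 5.56 and 5.20 in *K14-Cdx2::L2-IL-1β* samples, against 6.92, 7.11 and 6.37 in *L2-IL-1β* samples, in the same order of samples. The genotypes did not overlap, but sample 52545 lay 0.65 above the highest *K14-Cdx2::L2-IL-1β* sample while the *L2-IL-1β* samples spanned 0.742. The difference was -1.30 (SE 0.22), with a range of -1.52 to -1.15 over the fits that left out 1 array. All *K14-Cdx2::L2-IL-1β* values were below the median of all probe set means (6.64), so this segment was measured near the dim part of the arrays.

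A630038E17Rik is a RIKEN cDNA symbol that the deposited annotation attaches to probe sets of the T cell receptor δ chain, and its 4 rows name different pieces of that chain. The first (17300122; chromosome 14 from 54694679 to 54695190, plus strand, NCBIM37) is annotated to the RIKEN clone and to a transcript of 512 bases, the length RefSeq gives for the variable segment Trdv4, which serves as the Vδ1 chain of fetal γδ T cells. It measured 8.41, 7.97 and 7.56 in *K14-Cdx2::L2-IL-1β* samples, against 10.71, 10.84 and 10.83 in *L2-IL-1β* samples. The *L2-IL-1β* samples lay within 0.126 of each other and 2.30 above every *K14-Cdx2::L2-IL-1β* sample. The difference was -2.81 (SE 0.20), a 7.03-fold lower signal.

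The row 17300129 is annotated to a δ chain mRNA with the J2 and constant region, and all of its 19 probes match. Its values were 7.22, 6.98 and 6.74 in *K14-Cdx2::L2-IL-1β* samples, against 9.78, 9.85 and 9.86 in *L2-IL-1β* samples. The gap between genotypes, 2.56, was the widest of the 9 probe sets. The difference of -2.85 (SE 0.12), or 7.21-fold lower, moved only between -2.97 and -2.73 when an array was left out.

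The row 17300127 names the δ chain mRNA (signal peptide and VDJC segments) of an epidermal γδ T cell line, and its 12 probes all match. It measured 6.54, 5.68 and 5.98 in *K14-Cdx2::L2-IL-1β* samples, against 7.19, 7.04 and 7.42 in *L2-IL-1β* samples. Here the genotypes were apart by 0.504, less than the 0.86 spanned by the *K14-Cdx2::L2-IL-1β* samples, and the difference was -1.15 (SE 0.22).

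The fourth row, 17306330, names a δ chain mRNA to which 48 of its 60 probes match. It stayed dim and unresolved, with 5.52, 5.29 and 5.28 in *K14-Cdx2::L2-IL-1β* samples, against 5.47, 5.98 and 5.30 in *L2-IL-1β* samples. The genotypes overlapped, and the difference was -0.22 (SE 0.18). The 4 rows of one symbol therefore ran from -0.22 to -2.85, and the symbol alone does not say which piece of the δ chain was measured.

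**Figure D1:**
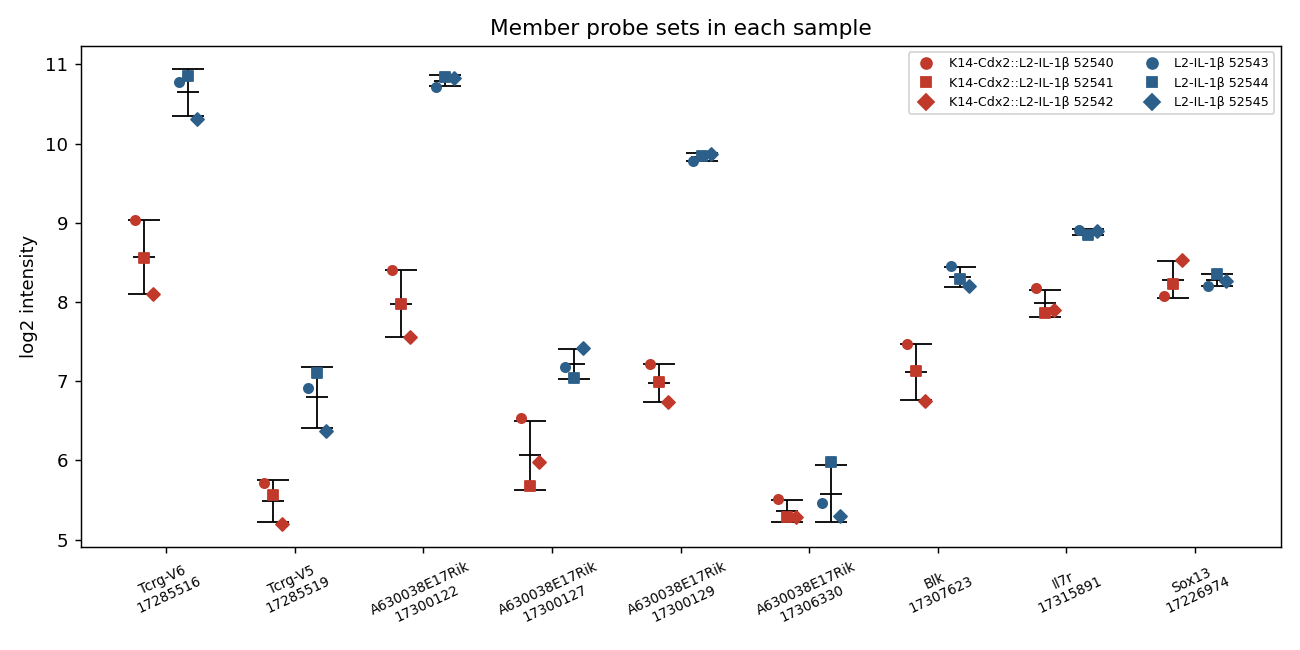
Log2 intensity (vertical axis) of the 9 member probe sets (horizontal axis, gene and probe set number) in each sample, *K14-Cdx2::L2-IL-1β* in red to the left and *L2-IL-1β* in blue to the right. Each symbol is 1 sample, the horizontal tick is the mean and the bar is the SD of 3 samples; the genotypes are apart for 7 probe sets and overlap for Sox13 and for A630038E17Rik 17306330.

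Blk, the kinase, measured 7.47, 7.14 and 6.75 in *K14-Cdx2::L2-IL-1β* samples, against 8.46, 8.29 and 8.21 in *L2-IL-1β* samples (probe set 17307623; chromosome 14 from 63991674 to 64036024, minus strand, NCBIM37). The lowest *L2-IL-1β* sample lay 0.74 above the highest *K14-Cdx2::L2-IL-1β* sample, and the *K14-Cdx2::L2-IL-1β* samples spread over 0.713. The difference was -1.20 (SE 0.18), a 2.30-fold lower signal, within -1.38 to -1.02 without any 1 array. Because B cells also carry Blk, the B cell markers are given beside it: of 12, 1 was called lower (Cd37), 1 higher (Fcer2a) and 10 neither. Their mean log2 level lay at 7.28 to 7.33 in *K14-Cdx2::L2-IL-1β* and at 7.22 to 7.23 in *L2-IL-1β* samples. Of the 7 other Src family kinases measured, none was called by limma, and at an unadjusted p under 0.05 only the myeloid kinase Fgr was lower (difference -0.68, SE 0.14, adjusted p = 0.104). Lck, the kinase of the T cell receptor complex, differed by 0.17 (SE 0.10, adjusted p = 0.54).

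Il7r, the receptor chain, measured 8.18, 7.87 and 7.91 in *K14-Cdx2::L2-IL-1β* samples, against 8.92, 8.85 and 8.89 in *L2-IL-1β* samples (probe set 17315891; chromosome 15 from 9435916 to 9459631, minus strand, NCBIM37). The *L2-IL-1β* samples fell within 0.0696 of each other, and the gap between genotypes was 0.664. The difference was -0.90 (SE 0.10), or 1.87-fold lower.

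Sox13 did not move with the other genes. It measured 8.08, 8.23 and 8.53 in *K14-Cdx2::L2-IL-1β* samples, against 8.21, 8.36 and 8.27 in *L2-IL-1β* samples (probe set 17226974; chromosome 1 from 135280228 to 135289847, minus strand, NCBIM37). The *L2-IL-1β* samples lay inside the range of the *K14-Cdx2::L2-IL-1β* samples, and the difference was 0.00 (SE 0.12), between -0.13 and 0.10 without any 1 array. Sample 52542, the lowest *K14-Cdx2::L2-IL-1β* sample in most other rows, was the highest of all 6 here. None of the 5 related SoxC and SoxD genes measured was called by limma, and at an unadjusted p under 0.05 only Sox5 was higher (0.16, SE 0.06, adjusted p = 0.33).

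In all, 7 of the 9 member probe sets were called lower and none higher, where 1.26% of all probe sets were called lower and 0.576% higher. The same 7 had genotypes that did not overlap with *K14-Cdx2::L2-IL-1β* lower, against 11.5% of all probe sets. Since the genes were selected on this contrast, nothing is read from these counts. One feature the choice did not use was how the *K14-Cdx2::L2-IL-1β* samples differed among themselves. In 6 of the 9 probe sets sample 52540 was the highest and sample 52542 the lowest *K14-Cdx2::L2-IL-1β* sample, a pattern held by 21.1% of all probe sets. It was also held by 8 of 12 squamous epithelial markers and by 4 of 8 αβ T cell markers. The rows share 6 arrays, and several share a transcript, so this is a description.

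Of the members, RefSeq promoter sequences were at hand for Il7r and Sox13, and they are printed with those of Il17a and Il17f, the cytokine genes of the same cells, because Il7r and both cytokine genes were lower while Sox13 was level. Each runs 5′ to 3′ from 250 bases before to 50 bases after the start site on GRCm38.p6. Capitals mark matches, on either strand, to the core of a SOX site (AACAAT), of a CDX site (TTTATN) or of a STAT site (TTCNNNGAA). Il7r lies at chr15:9529827-9530126 (minus strand), Sox13 at chr1:133424163-133424462 (minus strand), Il17a at chr1:20730655-20730954 (plus strand) and Il17f at chr1:20784221-20784520 (minus strand).
Il7r: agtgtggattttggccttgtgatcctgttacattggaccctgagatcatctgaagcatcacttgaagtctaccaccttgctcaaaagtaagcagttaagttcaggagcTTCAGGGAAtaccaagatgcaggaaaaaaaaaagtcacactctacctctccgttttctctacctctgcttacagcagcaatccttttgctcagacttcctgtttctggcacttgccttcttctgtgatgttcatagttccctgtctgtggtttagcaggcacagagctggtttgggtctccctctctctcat
Sox13: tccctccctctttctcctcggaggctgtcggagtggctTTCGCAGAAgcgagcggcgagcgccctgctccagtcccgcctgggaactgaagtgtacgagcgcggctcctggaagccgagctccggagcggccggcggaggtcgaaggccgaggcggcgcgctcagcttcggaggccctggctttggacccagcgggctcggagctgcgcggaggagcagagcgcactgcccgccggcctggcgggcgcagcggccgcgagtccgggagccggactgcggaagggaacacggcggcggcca
Il17a: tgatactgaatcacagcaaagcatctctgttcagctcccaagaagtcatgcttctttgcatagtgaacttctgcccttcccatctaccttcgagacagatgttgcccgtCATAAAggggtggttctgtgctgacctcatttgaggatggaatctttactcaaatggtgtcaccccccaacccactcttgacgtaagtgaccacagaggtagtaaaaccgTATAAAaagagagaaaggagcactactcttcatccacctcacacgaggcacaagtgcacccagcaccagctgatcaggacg
Il17f: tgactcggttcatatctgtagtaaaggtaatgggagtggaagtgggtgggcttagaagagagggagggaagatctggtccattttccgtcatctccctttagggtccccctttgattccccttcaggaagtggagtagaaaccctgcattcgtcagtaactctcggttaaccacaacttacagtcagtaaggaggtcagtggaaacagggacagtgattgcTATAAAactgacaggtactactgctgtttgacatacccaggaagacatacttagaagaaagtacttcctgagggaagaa
The promoter of Il17a held 2 matches to the CDX core and that of Il17f 1, and in each gene the match nearest the start is also the TATA-like run at -31 (Il17a) or -29 (Il17f); 39.9% of 32851 promoters of this length held this core. Il7r and Sox13 each held 1 STAT core and no CDX core, and 8.3% of all promoters held the STAT core. The SOX core, in 10.7% of promoters, was in none of these 4. No capitals of different motifs overlap. A match says only that these letters are present.

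Other probe sets of the γ and δ loci, which carry no gene symbol in the deposited table, were found by their annotation. Of 12, 6 were called lower and none higher by limma, where 1.26% of all probe sets were called lower and 0.576% higher. Their median difference was -1.11, where the median over all 34365 probe sets was -0.01. The γ rows can read the same transcripts as Tcrg-V6 and Tcrg-V5, which were chosen on this contrast. Their calls and adjusted p-values are therefore a description and no separate support. All 6 called were γ chain rows. Of 9 γ rows, 7 had genotypes that did not overlap with *K14-Cdx2::L2-IL-1β* lower, against 11.5% of all probe sets, and the median difference was -1.60. The 3 δ rows, by contrast, measured between 3.85 and 4.54 in all 6 samples, and their differences ran from -0.07 to 0.12.

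The brightest γ row, 17285523, is annotated to a γ chain RNA and to a constant region transcript of 2516 bases, the length RefSeq gives for Trgc1 (chromosome 13 from 19305972 to 19308487, NCBIM37). It measured 11.15, 11.21 and 10.37 in *K14-Cdx2::L2-IL-1β* samples, against 12.64, 12.66 and 12.47 in *L2-IL-1β* samples, and fell by 1.68 on the log2 scale (SE 0.22, adjusted p = 0.0441). The row 17285521, which also names a γ chain RNA beside an older record filed as β chain, measured 10.23, 9.88 and 9.15 in *K14-Cdx2::L2-IL-1β* samples, against 11.93, 11.84 and 11.59 in *L2-IL-1β* samples (difference -2.03, SE 0.27, adjusted p = 0.0428). Rows of the γ constant genes and their joining segments fell alike: 17290846 by 1.53 (SE 0.23, adjusted p = 0.0549), 17290850 by 1.74 (SE 0.28, adjusted p = 0.0601) and 17285539 by 1.60 (SE 0.19, adjusted p = 0.0333). The γ constant genes are close copies of each other, so which of them gave the signal in these rows is uncertain. When 1 array was left out, these 5 rows differed by -2.27 to -1.29, and their sign could not change because their genotypes did not overlap. None of them passed the threshold without 52541, 52543, 52544 or 52545.

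The sixth called row, 17285532, names an active γ chain mRNA and fell by 1.61 (SE 0.15, adjusted p = 0.0212). Some other γ rows were not called. The row 17285536, annotated to a γ chain constant region clone, measured 8.84 to 9.05 in the 3 *K14-Cdx2::L2-IL-1β* samples, against 8.81 to 8.91 in the 3 *L2-IL-1β* samples, with a difference of 0.09 (SE 0.08, adjusted p = 0.67). The following rows were chosen after their values were seen, as other variable segments of the locus. The row 17290852, of 454 bases as RefSeq's Trgv2, differed by -0.69 (SE 0.27, adjusted p = 0.34), and 17285513, the row that lies before Tcrg-V6, by -0.63 (SE 0.27, adjusted p = 0.38). RefSeq lists Trgv4 directly before Trgv6, but with 526 bases against the 521 of 17285513, so that row is matched to Trgv4 by position only. The row 17285527, of 457 bases as Trgv3, differed by -0.36 (SE 0.19, adjusted p = 0.48), and 17285510, of 451 bases as Trgv7, by -0.22 (SE 0.13, adjusted p = 0.52). None of these variable segment rows passed the threshold, while the members Tcrg-V6 and Tcrg-V5 differed by -2.08 and -1.30. The contrast between segments was not tested. A joining segment row outside the 12, 17285530 (chromosome 13 from 19348986 to 19349045, NCBIM37), was also chosen after its values were seen. It measured 6.90, 6.38 and 5.26 in *K14-Cdx2::L2-IL-1β* samples, against 8.60, 8.56 and 8.09 in *L2-IL-1β* samples, and fell by 2.23 (SE 0.40, adjusted p = 0.0791), the largest difference among the γ rows.

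The α chain segments, which share chromosome 14 with the δ chain, gave a further comparison, set up after values had been seen. Of 92 distinct α chain rows without a δ chain in their annotation, 1 was called higher (the variable segment row 17299834, 0.30, SE 0.06, adjusted p = 0.0912), none was called lower, and the median difference was -0.03. That row was dim, with a mean of 4.82 in *K14-Cdx2::L2-IL-1β* and 4.53 in *L2-IL-1β* samples. The levels of the α rows as a set were not compared with those of the γ rows. Dim rows can hide a fall, so the median does not say that α chain transcripts were level. The joining segments had a median of -0.07 (n = 32) and the other α rows of -0.01 (n = 60). The lowest was a joining segment, 17300131, at -1.70 (SE 0.59, adjusted p = 0.28), whose *L2-IL-1β* samples spread over 2.47. The row 17300247, filed under Trav9d-3 but placed by its annotation on a transcript of 2577 bases of a constant region gene (chromosome 14 from 54840196 to 54842772, NCBIM37), measured 9.25, 9.19 and 8.74 in *K14-Cdx2::L2-IL-1β* samples, against 9.45, 9.79 and 9.54 in *L2-IL-1β* samples. Its genotypes did not overlap, and its difference of -0.53 (SE 0.16, adjusted p = 0.22) did not pass the threshold. Of the α rows, 12 had genotypes that did not overlap with *K14-Cdx2::L2-IL-1β* lower, close to the 11.5% of all probe sets.

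**Figure D2:**
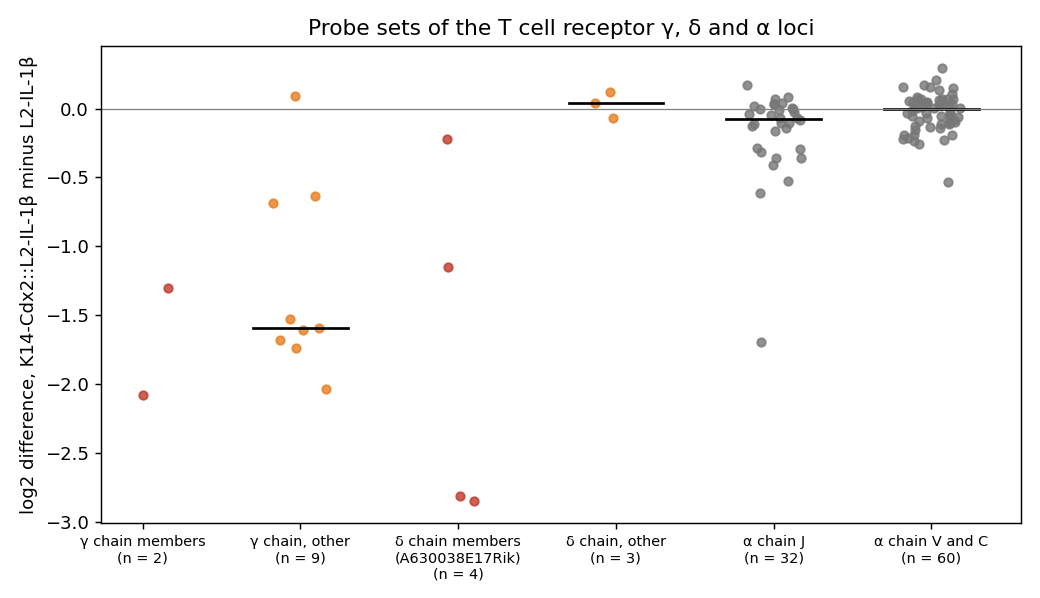
Log2 difference, *K14-Cdx2::L2-IL-1β* minus *L2-IL-1β* (vertical axis), of probe sets of the γ, δ and α chain loci (horizontal axis, with n). Each point is 1 probe set, red for members, orange for other γ and δ rows and grey for α rows, and the black line is the median of a group of non-members; most γ rows lie between -2.03 and -1.53 and most α rows near 0.

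The wider programme of IL-17 producing γδ T cells was followed with a list of 27 genes, without the members. Of these, 5 were called lower, none higher and 22 neither by limma, with a median difference of -0.09. At an unadjusted p under 0.05, 9 were lower and none higher, where 4699 of all 34365 probe sets reached that p in either direction. The number called was 0 without sample 52541, 52543, 52544 or 52545 and 7 without sample 52540. The called genes were the cytokines Il17a and Il17f, the chemokine receptor Cxcr6, the scavenger receptor Cd163l1, which marks γδ T cells, and the transcription factor Batf. Il17a measured 7.13, 7.35 and 7.75 in *K14-Cdx2::L2-IL-1β* samples, against 9.20, 8.91 and 8.69 in *L2-IL-1β* samples, and fell by 1.52 (SE 0.19, adjusted p = 0.0416). Within the *K14-Cdx2::L2-IL-1β* samples it ran opposite to Tcrg-V6, with its highest value in sample 52542.

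Il17f was lower by a smaller amount, at 7.08, 6.89 and 6.76 in *K14-Cdx2::L2-IL-1β* samples, against 7.56, 7.32 and 7.59 in *L2-IL-1β* samples (difference -0.58, SE 0.11, adjusted p = 0.0959). Cxcr6 measured 8.41, 8.12 and 7.51 in *K14-Cdx2::L2-IL-1β* samples, against 9.75, 9.72 and 9.45 in *L2-IL-1β* samples, and fell by 1.62 (SE 0.23, adjusted p = 0.0476). Cd163l1 fell by 0.82 (SE 0.12, adjusted p = 0.0508) and Batf by 0.35 (SE 0.07, adjusted p = 0.091).

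Several transcription factors and receptors that define the lineage were not called. Maf differed by -0.36 (SE 0.18, adjusted p = 0.43), Il23r by -0.27 (SE 0.16, adjusted p = 0.51), Sox4 by -0.09 (SE 0.11, adjusted p = 0.78) and Ccr6 by -0.09 (SE 0.08, adjusted p = 0.68). All 4 had overlapping genotypes. Il23r and Ccr6 lay below the median of all probe set means (6.64) in every sample, where a difference may go unseen.

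A second list of 16 genes covered the interferon γ producing and epidermal γδ T cells. Only Il2rb, the shared receptor chain for IL-2 and IL-15, was called, with 7.04, 7.03 and 6.98 in *K14-Cdx2::L2-IL-1β* samples, against 8.13, 8.28 and 8.31 in *L2-IL-1β* samples (difference -1.22, SE 0.07, adjusted p = 0.00629). The median of the list was 0.04. Ifng differed by 0.04 (SE 0.06), Cd27 by 0.04 (SE 0.13) and Tbx21 by 0.02 (SE 0.08), and none was called. Ifng and Cd27 lay below the median of all probe set means (6.64) in every sample. Among 18 measured Skint and butyrophilin-like genes, epithelial relatives of the molecules that select γδ T cells, none was called by limma. Skint1, needed in mice for epidermal Vγ5 cells, measured 9.79, 9.12 and 8.75 in *K14-Cdx2::L2-IL-1β* samples, against 9.81, 9.46 and 9.60 in *L2-IL-1β* samples (difference -0.40, SE 0.26, adjusted p = 0.56), and Skint10 alone was higher at an unadjusted p under 0.05 (1.37, SE 0.53, adjusted p = 0.33).

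Of 16 measured genes of the CD3 complex and T cell receptor signalling, which all T cells share, 2 were called lower (the kinase Zap70 and the receptor Cd5), none higher and 14 neither, with a median of -0.23; 8 were lower at an unadjusted p under 0.05. Without sample 52540 the number called was 6, and it was 0 without 52541, 52543 or 52544. Zap70 measured 6.40, 6.53 and 6.35 in *K14-Cdx2::L2-IL-1β* samples, against 7.40, 7.55 and 7.20 in *L2-IL-1β* samples (difference -0.96, SE 0.11, adjusted p = 0.029). Cd3e, a chain of the CD3 complex, measured 8.79, 8.86 and 7.86 in *K14-Cdx2::L2-IL-1β* samples, against 9.74, 9.90 and 9.74 in *L2-IL-1β* samples, and just missed the threshold (difference -1.29, SE 0.26, adjusted p = 0.103). Cd3g had a difference of similar size (-1.47, SE 0.46, adjusted p = 0.24), with *K14-Cdx2::L2-IL-1β* samples spread from 7.86 to 9.83.

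Around Il7r, none of the 12 measured partners of the interleukin 7 receptor pathway was called by limma; at an unadjusted p under 0.05, 2 were lower and 2 higher. Il2rg, the common γ chain that pairs with Il7r, measured 7.75, 8.27 and 7.57 in *K14-Cdx2::L2-IL-1β* samples, against 8.63, 8.79 and 8.87 in *L2-IL-1β* samples (difference -0.90, SE 0.18, adjusted p = 0.102). The ligand genes were not called: Il7 differed by -0.09 (SE 0.08, adjusted p = 0.66) and Tslp by 0.11 (SE 0.09, adjusted p = 0.67). Both lay below the median of all probe set means (6.64) in every sample, where a difference may go unseen. The target genes Cish (0.42, SE 0.09, adjusted p = 0.12) and Bcl2 (0.42, SE 0.10, adjusted p = 0.14) had higher values in every *K14-Cdx2::L2-IL-1β* sample, but did not pass the threshold.

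Of 11 cytokines and chemokines that act on IL-17 producing γδ T cells, 3 were called lower, 1 higher and 7 neither; none was called without sample 52541, 52543, 52544 or 52545. Il23a, a subunit of IL-23, measured 6.67, 6.96 and 6.88 in *K14-Cdx2::L2-IL-1β* samples, against 8.15, 7.88 and 7.77 in *L2-IL-1β* samples (difference -1.10, SE 0.12, adjusted p = 0.029). Il1b measured 7.45, 8.05 and 7.97 in *K14-Cdx2::L2-IL-1β* samples, against 9.44, 8.93 and 9.94 in *L2-IL-1β* samples (difference -1.61, SE 0.28, adjusted p = 0.0704). Tgfb1 fell by 0.67 (SE 0.09, adjusted p = 0.047). Il18, which costimulates IL-17 release by γδ T cells, was higher, by 0.58 (SE 0.10, adjusted p = 0.0803). The paper describes the transgene as human IL-1β, whereas this probe set is annotated to mouse Il1b. By qPCR the paper found esophageal IL-1β mRNA unaltered by the *K14-Cdx2* transgene, in a tissue not on these arrays. Whether the IL-1β transgene contributes to the Il1b probe set was not tested.

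**Figure D3:**
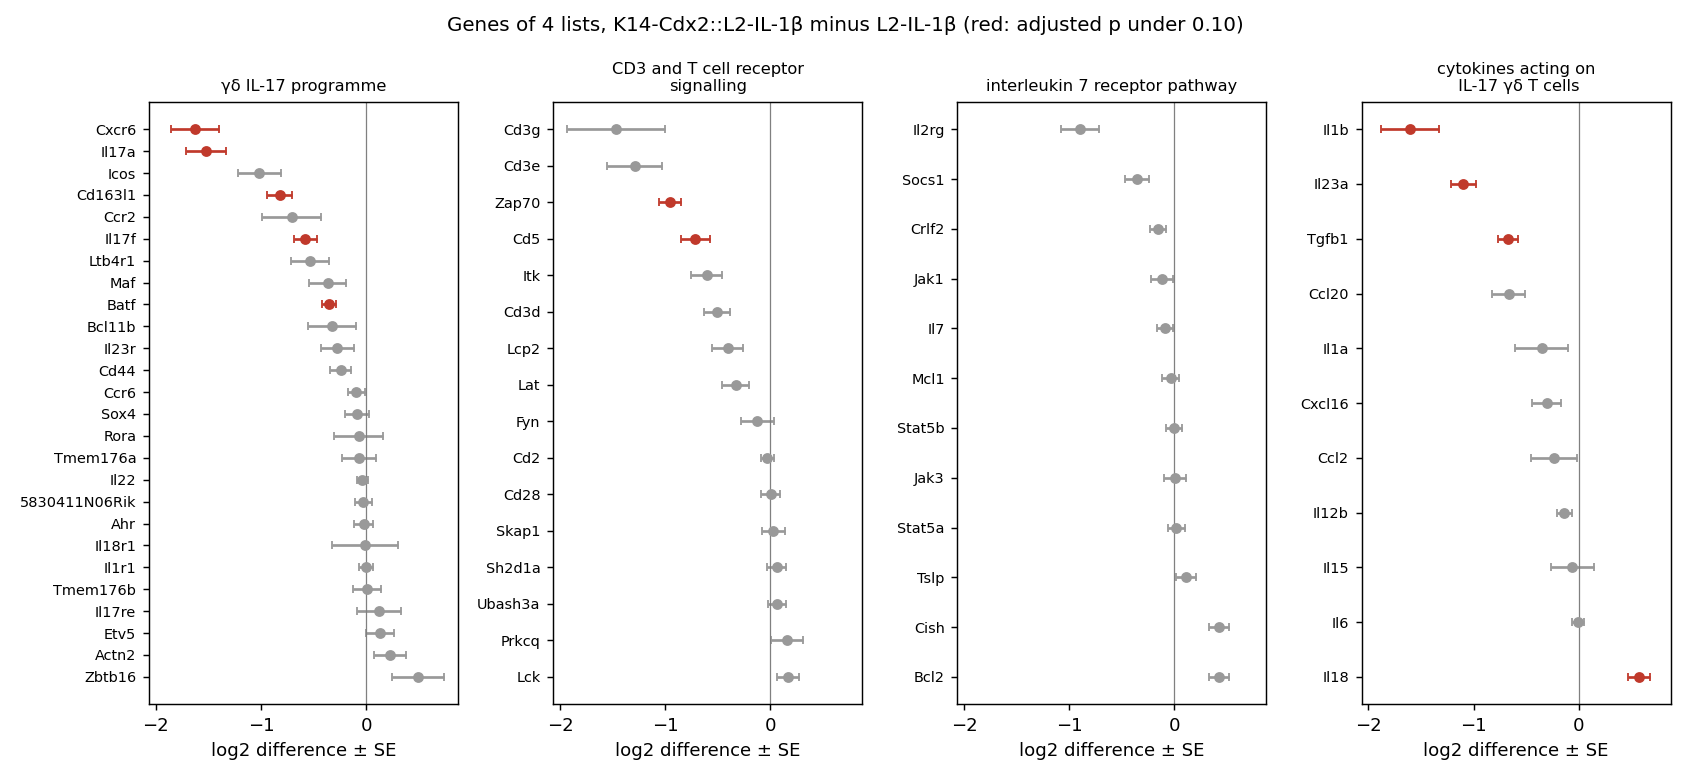
Log2 difference, *K14-Cdx2::L2-IL-1β* minus *L2-IL-1β*, with its SE (horizontal axis) for measured genes (rows) of 4 lists without the members; red points passed an adjusted p under 0.10. In the γδ IL-17 list Cxcr6 and Il17a lie near -1.6 and -1.5 while Zbtb16 lies to the right of 0.

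Markers of other cells in the nodules were measured beside these genes. Of 12 αβ T cell markers 8 were measured, and the receptor chain entries Tcra, Trac, Trbc1 and Trbc2 were not found. None of the 8 was called by limma (1 lower and 1 higher at an unadjusted p under 0.05). Their mean level ran from 6.45 to 6.70 in *K14-Cdx2::L2-IL-1β* and from 6.56 to 6.65 in *L2-IL-1β* samples. Cd8a, Foxp3, Ctla4 and Cd40lg lay below the median of all probe set means (6.64) in every sample. Cd4 differed by -0.14 (SE 0.10), Cd8a by 0.30 (SE 0.11) and the β chain row Tcrb-J by -0.60 (SE 0.17, adjusted p = 0.19). The genotypes did not overlap for Tcrb-J or for Cd8a. Of 9 measured NK cell markers, Klrc1 (-1.30, SE 0.11, adjusted p = 0.0173) and Klrd1 (-0.98, SE 0.13, adjusted p = 0.0423) were called lower, and Ncr1, the defining receptor, differed by 0.23 (SE 0.12); the mean level was 5.60 to 5.75 in *K14-Cdx2::L2-IL-1β* and 5.86 to 6.09 in *L2-IL-1β* samples. Klrc1 and Klrd1 form a receptor that some γδ T cells also carry. None of the 12 innate lymphoid cell markers was called (4 lower and 2 higher at an unadjusted p under 0.05), with a mean level of 8.26 to 8.51 in *K14-Cdx2::L2-IL-1β* and 8.36 to 8.41 in *L2-IL-1β* samples.

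Leukocyte markers differed from list to list. Of 12 pan-leukocyte genes, 2 were called lower and none higher, 10 were lower at an unadjusted p under 0.05, and the mean level was 8.29 to 8.70 in *K14-Cdx2::L2-IL-1β* and 8.98 to 9.12 in *L2-IL-1β* samples. Their median difference was -0.51. The list of cytokines acting on these cells (8.04 to 8.27 in *K14-Cdx2::L2-IL-1β* and 8.50 to 8.60 in *L2-IL-1β* samples) and the Src family kinases (8.58 to 8.69 in *K14-Cdx2::L2-IL-1β* and 8.75 to 8.77 in *L2-IL-1β* samples) were likewise apart. Of 14 neutrophil genes 6 were called lower and none higher, with a median of -0.86 and a mean level of 7.60 to 7.82 in *K14-Cdx2::L2-IL-1β* and 8.46 to 8.68 in *L2-IL-1β* samples. Of 12 squamous epithelial genes, 2 were called lower (Krt14 and Sfn), and the mean level was 11.72 to 12.18 in *K14-Cdx2::L2-IL-1β* and 12.11 to 12.23 in *L2-IL-1β* samples. The part of these shifts in the differences of the members was not tested. The members were chosen on this contrast, so their sizes beside other lists are a description. Tcrg-V6 (-2.08) and both bright δ chain rows (-2.81 and -2.85) differed by more than Cd53 (-1.03), the lowest of the 12 pan-leukocyte genes. Tcrg-V5 (-1.30), Blk (-1.20), the δ row 17300127 (-1.15) and Il7r (-0.90) lay nearer to Cd53. The δ row 17306330 (-0.22) and Sox13 (0.00) differed by less. The neutrophil gene Stfa3 lay close to Tcrg-V6.

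**Figure D4:**
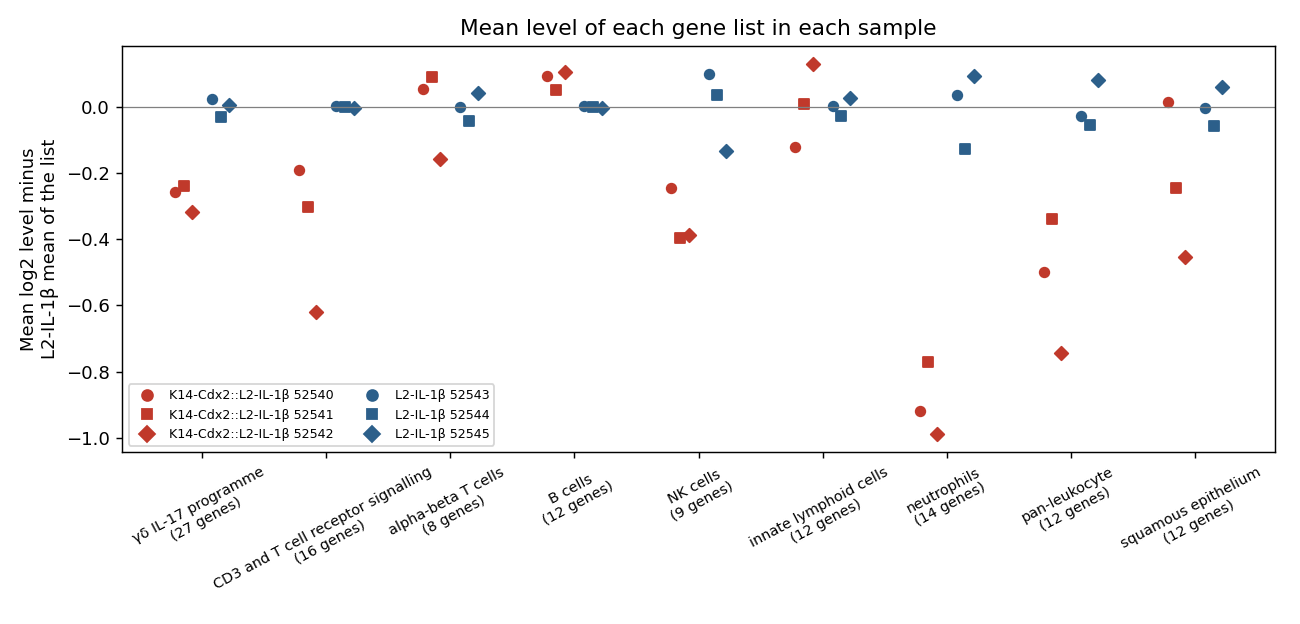
Mean log2 level of 9 of the 15 lists (horizontal axis, with its number of measured genes) in each sample, minus the *L2-IL-1β* mean of that list (vertical axis), *K14-Cdx2::L2-IL-1β* in red to the left and *L2-IL-1β* in blue to the right. The *K14-Cdx2::L2-IL-1β* samples lie below every *L2-IL-1β* sample for the γδ IL-17, CD3, NK cell, neutrophil and pan-leukocyte lists, and above every *L2-IL-1β* sample for B cells.

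The genes whose pattern over the 6 samples was most like the members were sought by the root mean square distance, in log2 units, between centred profiles. The member profile was the mean of the 7 member probe sets brighter than the median of the arrays. Over all 24641 other genes the median distance was 0.803. The nearest was Slc6a14, an amino acid transporter (distance 0.0989), with 10.58, 10.33 and 9.90 in *K14-Cdx2::L2-IL-1β* samples, against 11.82, 11.83 and 11.69 in *L2-IL-1β* samples. Gm1045 (0.175), the inhibitory receptor Pdcd1 (0.175), Cxcr6 (0.176), the inhibitory receptor Havcr2 (0.19), Adcy8 (0.208), Lgi2 (0.214) and Tmigd1 (0.215) followed. Pdcd1 measured 6.75, 6.30 and 6.53 in *K14-Cdx2::L2-IL-1β* samples, against 8.47, 8.36 and 8.25 in *L2-IL-1β* samples (difference -1.83, SE 0.13). These genes were sought by their likeness to members chosen on this contrast, so their genotype differences are a description and no separate test. With 6 samples in 2 groups, a small distance mostly says that a gene differs between genotypes by a like amount.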

How the data were processed

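RNA of SCJ nodules, in 3 *K14-Cdx2::L2-IL-1β* and 3 *L2-IL-1β* samples, was measured on Affymetrix arrays, and samples were grouped by their labels. The authors deposited log2 intensities per probe set, already normalized between arrays; which software, summarisation and background correction they used is not stated in these sources. Different mouse gene arrays are named in the methods and in the design text. Positions are those of the deposited annotation (NCBIM37), although mm8 is the build in the submitters' notes. Columns of the authors' own comparison (fold changes, scores and p-values) were not used. Both tables with values per array were identical.

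The genotypes were compared on all 34365 probe sets by limma 3.58.1 (R 4.3.3; lmFit and eBayes, prior degrees of freedom 2.59), genotype being the only term, and p-values were adjusted by Benjamini-Hochberg. The SAM test of the methods was not repeated. On simulated data, in this comparison with 200 of 34365 probe sets changed, limma called 91% of the 2-fold and 98% of the 4-fold changes, with 24 false calls among 213. Whether these shares hold for the measured arrays was not tested. On those arrays all probe sets called numbered 13 to 2026 when 1 array was left out, and 0 by the equal-variance test. P-values measure the spread between these samples. Precision is limited by the number of arrays.

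The members and the 15 gene lists were chosen with earlier results of these data known. Of 198 list entries, 191 were found by symbol and 7 were not found. Where a gene had several probe sets, the one with the highest mean stood for it. Named were all member probe sets, up to 6 other γ or δ rows with the highest mean, per list up to 4 genes of lowest p, a fixed set of lineage genes and the 8 nearest profiles, and genes named outside this rule were chosen after their values were seen. As alternatives served a further quantile normalization, median centring, a filter on dim probe sets, an equal-variance test, eBayes with trend and robust, averaging the probe sets of a gene, an adjusted p under 0.05 and leaving out each array. Some genes counted in the lists are not reported by name here. Tables and figures were made with Python 3.11.15, pandas 2.3.3, numpy 2.4.6 and matplotlib 3.10.9.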

Additional observations from a re-analysis of the deposited data

How the results depend on the processing

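Under both normalizations the differences of the 9 member probe sets moved by less than their SD within genotypes, pooled over both. The 7 that were lower stayed lower. Leaving out 1 of 3 arrays cannot move a difference by that SD, nor change its sign where genotypes do not overlap. For the 7 lower probe sets those fits are therefore no test of the sign. Sox13 had no stable sign (-0.13 to 0.10). Counts of calls depended on the arrays and the test. All probe sets called numbered 631, against 0 by the equal-variance test, 190 at an adjusted p under 0.05, and 13 to 2026 when 1 array was left out. It was 2026 without *K14-Cdx2::L2-IL-1β* 52540, 72 without 52541, and 13, 47 and 40 without *L2-IL-1β* 52543, 52544 and 52545. Of the γδ IL-17 programme 5 genes were called, 3 with trend and robust, 0 by the equal-variance test, 2 at 0.05, and 0 to 7 leaving out 1 array (3 without 52542). Of the CD3 and signalling list 2 were called, 1 with a further quantile normalization, 0 by the equal-variance test, 1 at 0.05, and 0 to 6 leaving out 1 array (6 without 52540). Of the cytokines 4 were called, 0 by the equal-variance test, 2 at 0.05, and 0 to 5 leaving out 1 array. The γδ IL-17 and cytokine lists had 0 calls without 52541, 52543, 52544 or 52545. Of 36 named genes called, none changed sign under any alternative. Leaving out an array could not change a sign where genotypes did not overlap. The equal-variance test called none of the 36. Of the 36 calls, 28 were lost without 52541, 32 without 52543, 27 without 52544, 30 without 52545, 6 without 52542 and 0 without 52540. The differences of Sox11 (-0.14 to 0.0039), Fyn (-0.27 to 0.059) and Sox6 (-0.37 to 0.029), none of them called, changed sign when 1 array was left out (52540 for Sox11, 52542 for Fyn and Sox6). The causes were not tested. No paired analysis was possible because the genotypes share no sample number. Rows near 4 are close to the dimmest signal, where a difference may go unseen.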
